A study of Mus musculus with 8 samples.

Results

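The 9 genes described here code for parts of the antigen receptors of B and T lymphocytes and for proteins that sit beside them in the membrane. They are Cd79a, Cd79b and Ms4a1 of B cells, the CD3 chain genes Cd3d, Cd3e and Cd3g of T cells, and the coreceptor genes Cd4, Cd8a and Cd8b1. They were chosen by name as the B and T lymphocyte receptor genes of mouse lung, and 9 of the 55416 gene identifiers in the count tables carry these names. All 9 passed the filter on low counts and were among the 18560 genes tested.

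A B cell recognises antigen through a membrane immunoglobulin that cannot signal by itself, and the CD79A and CD79B proteins (Igα and Igβ) form the attached pair that passes the signal inward. A T cell receptor likewise depends on its CD3 chains, while CD4 and CD8 bind the MHC molecule that presents the peptide and bring the kinase LCK to the receptor. In the lung, naive and memory lymphocytes circulate through the vessels, memory cells also reside in the tissue, and bacterial lipopolysaccharide acts on B cells directly through its own receptor.

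RNA was sequenced from lung tissue of 8 C57BL/6 mice, each library from a separate animal, to ask how the PAD4 inhibitor YW3-56 alters the response of the lung to lipopolysaccharide (LPS) in a model of sepsis. The mice were females of 6 to 8 weeks, and the methods give the strain as C57BL/6J. Control mice 1, 2 and 4 received DMSO through the tail vein and then saline in the peritoneum. LPS mice 1, 6 and 7 received 35 mg/kg LPS in saline in the peritoneum, and the methods describe no DMSO injection for them. Dual-treated mice 2 and 5 received 10 mg/kg YW3-56 in DMSO, by a route the methods do not state, shortly before the same LPS dose. Lungs were taken 24 h after LPS. The methods state 3 sequenced mice per group, while the paper's RNA-seq figure gives 2 for dual treatment, and 2 dual-treated libraries were analysed here. The effect of the DMSO vehicle and that of YW3-56 cannot be told apart in the comparison of the dual-treated with the LPS mice. In that of the LPS mice with the controls, the effect of LPS and that of the missing DMSO cannot be told apart either, and "after LPS" below names the group.

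The libraries held 19061949, 19796242 and 20527836 assigned counts in control mice 1, 2 and 4, and 20818501, 19379911 and 19279724 in LPS mice 1, 6 and 7. Dual-treated mice 2 and 5 had 19875939 and 20908608. Levels are given in CPM, gene counts scaled to a common library size after TMM adjustment. The tissue label was checked against 11 genes of alveolar, airway, vessel and connective tissue cells, none of them at 0 in any library. The most abundant, the club cell gene Scgb1a1, lay at 29414, 36837 and 34433 CPM in the controls, 65313, 55395 and 53726 in the LPS mice, and 22675 and 25095 in the dual-treated mice. Summed over the list, the level was 68659, 70213 and 75370 in the controls, 95180, 76735 and 70822 after LPS, and 43093 and 56680 after dual treatment.

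LPS mice 6 and 7 stood apart from every other library in genes of other tissues. Skeletal muscle genes summed to 521 and 1331 CPM in these mice, against 21.5 in LPS mouse 1, 11.9, 31.8 and 17.3 in the controls, and 7.08 and 8.87 in the dual-treated mice. Squamous epithelium genes summed to 748 and 2054 CPM there, against 37.2 in LPS mouse 1, 61.8, 51.8 and 51.1 in the controls, and 57.3 and 81.3 in the dual-treated mice. Among them were Acta1, the actin of skeletal muscle, at 210 and 600 CPM, and Krt13, a keratin of stratified epithelium, at 286 and 887 CPM. In the other 6 libraries Acta1 reached at most 0.69 CPM, was at 0 in control mouse 1, and Krt13 reached at most 0.878 CPM. The part of this tissue in the lymphocyte values of LPS mice 6 and 7 was not tested, and receptor gene results that gain or lose a call or change direction without them are given with both values.

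A gene is called changed where the quasi-likelihood test of edgeR gives a p that stays under 0.05 after Benjamini-Hochberg adjustment over all 18560 genes. Of all tested genes, 33.9% were called lower and 32.6% higher for LPS against control. For dual treatment the shares were 7.02% lower and 9.13% higher against control, and 27.4% lower and 31.7% higher against LPS. Each list count below is to be read beside these shares. Scaling matters for these comparisons. With library size alone the median log2 difference over all tested genes was -0.294 for LPS against control, 0.383 for dual treatment against LPS and 0.044 for dual treatment against control. With TMM scaling the same medians were -0.010, 0.060 and 0.004. Since bulk tissue was sequenced, fewer cells of a type and less RNA per cell cannot be told apart in any value below.

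LPS was followed by lower levels of Cd79a, Ms4a1, Cd3g and Cd4, while Cd79b, Cd3d and Cd8a had group means within the spread of single mice. These 4 of 9 genes were called lower and 0 of 9 higher. DESeq2 also called 4 lower and 0 higher, and 4 and 0 had an unadjusted p under 0.05 in edgeR. Of all tested genes, 33.9% were called lower and 32.6% higher in this comparison, so the response to LPS was broad and the count alone does not set the receptor genes apart. Their median log2 difference was -0.95, beside -0.01 over all tested genes. The count depended on single libraries: with each mouse left out in turn, 2 to 6 genes were called. It was 2, both lower, without control mouse 1, without LPS mouse 6 or without LPS mouse 7. Without LPS mice 6 and 7 together, only Ms4a1 of the 9 was called. With library size alone 6 were called lower and 0 higher.

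After dual treatment, Cd79a and Ms4a1 were above the LPS level in both mice, and Cd3d was below it in both. In this comparison 2 of 9 genes were called higher and 1 of 9 lower, beside 31.7% higher and 27.4% lower of all tested genes. With library size alone 3 of 9 were called higher and 0 lower, with a median of 0.82. With TMM scaling the median log2 difference was 0.48 for the 9 genes and 0.06 for all tested genes. Against the controls, edgeR called 0 of 9 higher and 0 of 9 lower, beside 9.13% higher and 7.02% lower of all tested genes. At an unadjusted p under 0.05 it found 1 lower, Cd3e, and DESeq2 called 1 lower, also Cd3e. Without dual-treated mouse 5, edgeR called 1 gene higher, Cd79a, and without LPS mouse 1 or LPS mouse 7, libraries that enter neither group, it called 1 lower, Cd3e. The medians there were -0.78 and 0.00. The 3 comparisons share mice, so each is described by its own values.

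**Figure D1:**
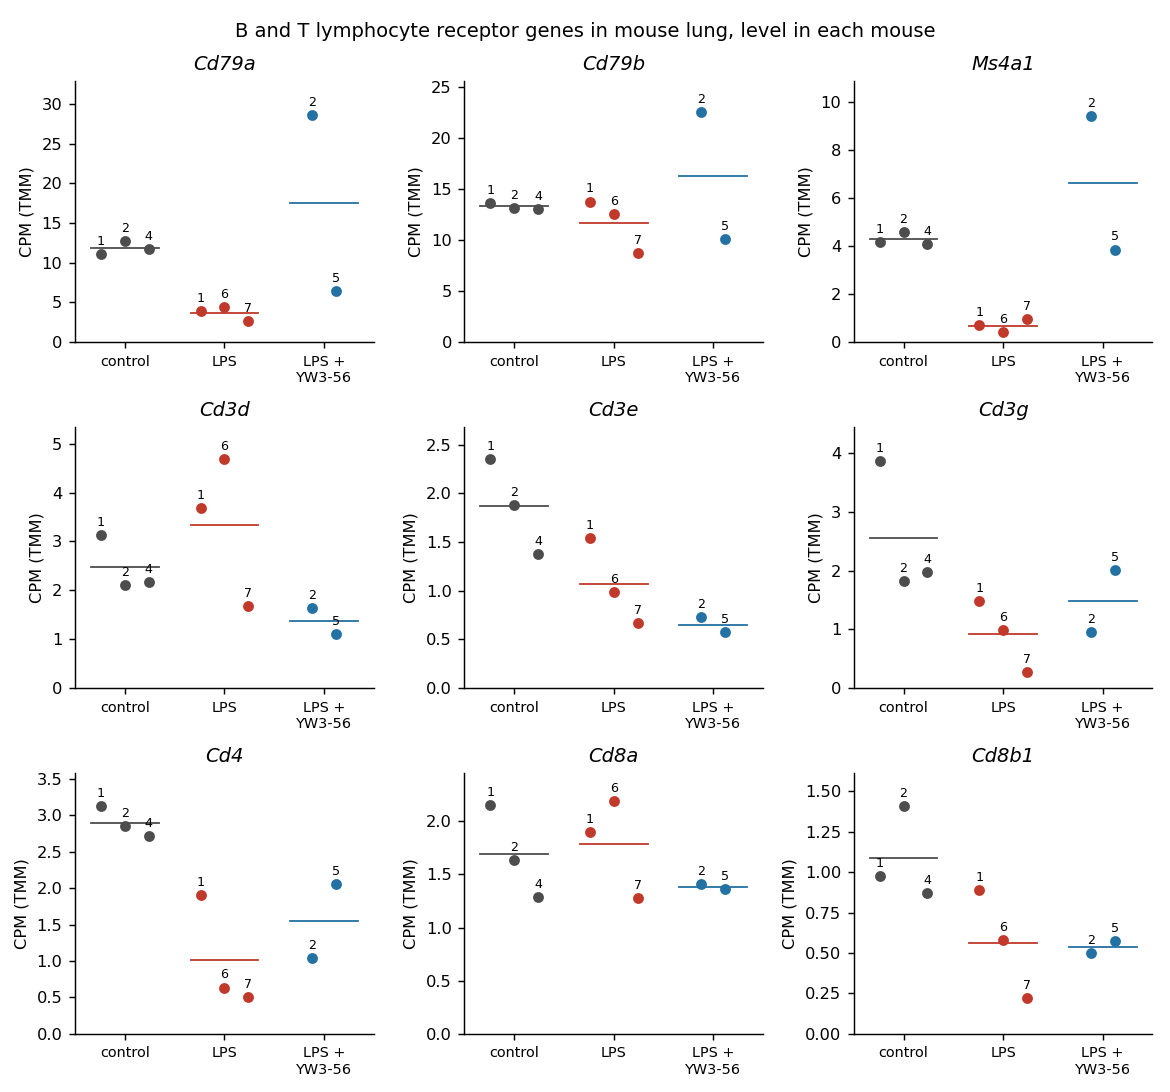
Level of each of the 9 receptor genes in every mouse, in CPM after TMM scaling, with points numbered by mouse and a bar at the group mean. Ms4a1 lay at or below 0.949 CPM in the 3 LPS mice and at or above 3.86 CPM in every other mouse.

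Cd79a (ENSMUSG00000003379, chr7:24596740-24601622 of GRCm39, plus strand) codes for Igα. Its level was 11.1, 12.7 and 11.7 CPM in control mice 1, 2 and 4, 3.97, 4.45 and 2.62 in LPS mice 1, 6 and 7, and 28.6 and 6.50 in dual-treated mice 2 and 5. All LPS mice lay below all other mice, and the dual-treated mice lay on either side of the controls. The means were 11.8 ± 0.81 CPM in controls (SD, n = 3), 3.68 ± 0.946 after LPS (SD, n = 3) and 17.5 ± 15.6 after dual treatment (SD, n = 2). After LPS it was 3.21-fold lower, a log2 difference of -1.68 (SE 0.46, adjusted p = 0.00921, edgeR). Without LPS mice 6 and 7 the difference was -1.57, of similar size, but with 1 LPS mouse left it was not called (adjusted p = 0.114, edgeR). Dual treatment gave a level 4.76-fold above LPS, a log2 difference of 2.25 (SE 0.493, adjusted p = 0.00352, edgeR), which became 2.13 with an adjusted p of 0.0574 in edgeR without LPS mice 6 and 7. Its size rested on single mice: it was 0.79 without dual-treated mouse 2 (adjusted p = 0.0477, edgeR) and 2.93 without dual-treated mouse 5 (adjusted p = 6.17e-05, edgeR). Against the controls the difference was 0.57 (SE 0.472, adjusted p = 0.462, edgeR). This too depended on the mouse: -0.89 without dual-treated mouse 2 (adjusted p = 0.136, edgeR) and 1.24 without dual-treated mouse 5 (adjusted p = 0.0103, edgeR).

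Cd79b (ENSMUSG00000040592, chr11:106202167-106205588, minus strand) codes for Igβ, the partner of Igα. It lay at 13.7, 13.2 and 13.1 CPM in control mice 1, 2 and 4, at 13.8, 12.6 and 8.71 in LPS mice 1, 6 and 7, and at 22.6 and 10.1 in dual-treated mice 2 and 5. LPS mice 1 and 6 were at the level of the controls, LPS mouse 7 was lower, and the ranges of all 3 groups overlapped. The means were 13.3 ± 0.351 CPM in controls (SD, n = 3), 11.7 ± 2.67 after LPS (SD, n = 3) and 16.3 ± 8.9 after dual treatment (SD, n = 2). The log2 difference of LPS from control was -0.19 (SE 0.28, adjusted p = 0.568, edgeR), and 0.06 without LPS mice 6 and 7. Dual treatment differed from LPS by 0.48 (SE 0.308, adjusted p = 0.203, edgeR) and from control by 0.29 (SE 0.307, adjusted p = 0.57, edgeR). Without dual-treated mouse 2 these became -0.24 and -0.44, and without dual-treated mouse 5 the difference from LPS was 0.93 (adjusted p = 0.0111, edgeR). With library size alone the difference from LPS was 0.82 and was called (adjusted p = 0.0367, edgeR).

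The partner genes of the B cell signalling pair can be compared inside each library. The ratio of Cd79a to Cd79b CPM, which does not depend on how a library is scaled, was 0.804, 0.961 and 0.895 in control mice 1, 2 and 4. It was 0.288, 0.353 and 0.301 in LPS mice 1, 6 and 7, and 1.26 and 0.646 in dual-treated mice 2 and 5. Every LPS mouse lay below every other mouse. No test of the ratio was made.

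Ms4a1 (ENSMUSG00000024673, chr19:11227039-11243605, minus strand) codes for CD20, a surface protein of B cells that is lost when they become plasma cells. Control mice 1, 2 and 4 had 4.16, 4.60 and 4.09 CPM, LPS mice 1, 6 and 7 had 0.712, 0.404 and 0.949, and dual-treated mice 2 and 5 had 9.44 and 3.86. The LPS mice again lay below all others, with 12, 7 and 17 counts. Dual-treated mouse 5 was just under the controls and dual-treated mouse 2 above them. The group means were 4.28 ± 0.275 CPM (SD, n = 3), 0.688 ± 0.273 (SD, n = 3) and 6.65 ± 3.94 (SD, n = 2). Ms4a1 was 6.16-fold lower after LPS, a log2 difference of -2.62 (SE 0.41, adjusted p = 0.000358, edgeR). Dual treatment gave a level 9.56-fold above LPS, a log2 difference of 3.26 (SE 0.433, adjusted p = 0.000194, edgeR). These calls held with each mouse left out and without LPS mice 6 and 7, but the difference from LPS was 2.45 without dual-treated mouse 2 and 3.74 without dual-treated mouse 5. From control, dual treatment differed by 0.63 (SE 0.383, adjusted p = 0.303, edgeR), and by -0.18 without dual-treated mouse 2.

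Set against Cd79b, CD20 transcripts were scarce after LPS. The ratio of Cd79b to Ms4a1 was 3.31, 2.87 and 3.20 in the controls, 19.4, 31.1 and 9.18 in the LPS mice, and 2.40 and 2.6 in the dual-treated mice. The dual-treated mice, which differed from each other in all 3 B cell genes, had close ratios. The summed CPM of the 3 B cell genes was 29.0, 30.5 and 28.9 in the controls, 18.5, 17.4 and 12.3 in the LPS mice, and 60.7 and 20.4 in dual-treated mice 2 and 5.

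Of the 3 CD3 chain genes of T cells, only Cd3g was called after LPS, and differences among the chains were not tested. Cd3d (ENSMUSG00000032094, chr9:44893083-44899173, plus strand), which codes for CD3δ, lay at 3.13, 2.11 and 2.16 CPM in control mice 1, 2 and 4, 3.68, 4.68 and 1.67 in LPS mice 1, 6 and 7, and 1.63 and 1.1 in dual-treated mice 2 and 5. The LPS mice spanned the control range, and the dual-treated mice were the lowest of the 8. The means were 2.47 ± 0.575 (SD, n = 3), 3.34 ± 1.53 (SD, n = 3) and 1.37 ± 0.379 CPM (SD, n = 2). LPS differed from control by 0.44 on the log2 scale (SE 0.384, adjusted p = 0.336, edgeR), and dual treatment from control by -0.85 (SE 0.451, adjusted p = 0.239, edgeR). Cd3d was 2.44-fold lower after dual treatment than after LPS, by a log2 difference of -1.29 (SE 0.455, adjusted p = 0.034, edgeR). This call was lost without LPS mouse 1 (-1.22, adjusted p = 0.0662), LPS mouse 6 (-0.97, adjusted p = 0.103), dual-treated mouse 2 (-1.63, adjusted p = 0.0511) or dual-treated mouse 5 (-1.05, adjusted p = 0.165), all by edgeR. With library size alone it was -0.95 (adjusted p = 0.0903, edgeR), and with only these groups in the fit -1.31 (adjusted p = 0.0627, edgeR).

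Cd3e (ENSMUSG00000032093, chr9:44910037-44920925, minus strand) codes for CD3ε, present in every T cell receptor complex. Its level was 2.35, 1.88 and 1.38 CPM in control mice 1, 2 and 4, 1.54, 0.982 and 0.670 in LPS mice 1, 6 and 7, and 0.726 and 0.571 in dual-treated mice 2 and 5. LPS mouse 1 fell inside the control range, the other LPS mice were below it, and both dual-treated mice were below all controls. The means were 1.87 ± 0.485 (SD, n = 3), 1.06 ± 0.442 (SD, n = 3) and 0.648 ± 0.11 CPM (SD, n = 2). The log2 difference of LPS from control was -0.81 (SE 0.394, adjusted p = 0.0951, edgeR). Without LPS mouse 1 it was -1.17 (adjusted p = 0.0359, edgeR), and with library size alone -1.12 (adjusted p = 0.0263, edgeR). It was -0.27 without LPS mice 6 and 7 (adjusted p = 0.655, edgeR). Dual treatment was 2.86-fold below control, a difference of -1.52 just outside the threshold (SE 0.463, adjusted p = 0.0536, edgeR), and DESeq2 called it (adjusted p = 0.0327). The edgeR call was also made without LPS mouse 1 (adjusted p = 0.0379) or LPS mouse 7 (adjusted p = 0.0356), libraries that enter neither group, or without LPS mice 6 and 7 (adjusted p = 0.0371). From LPS, dual treatment differed by -0.71 (SE 0.47, adjusted p = 0.22, edgeR), and by -1.25 without LPS mice 6 and 7 (adjusted p = 0.0787, edgeR).

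Cd3g (ENSMUSG00000002033, chr9:44880870-44891735, minus strand) codes for CD3γ, which pairs with CD3ε. Control mice 1, 2 and 4 had 3.87, 1.83 and 1.98 CPM, LPS mice 1, 6 and 7 had 1.48, 0.982 and 0.279, and dual-treated mice 2 and 5 had 0.953 and 2.02. The LPS mice lay below the controls, LPS mouse 7 with 5 counts lowest, and the dual-treated mice overlapped both groups. The means were 2.56 ± 1.14 (SD, n = 3), 0.915 ± 0.605 (SD, n = 3) and 1.49 ± 0.754 CPM (SD, n = 2). It was 2.79-fold lower after LPS, by -1.48 on the log2 scale (SE 0.565, adjusted p = 0.0411, edgeR). This call was fragile: it was lost without control mouse 1 (-1.06, adjusted p = 0.162), control mouse 4 (-1.64, adjusted p = 0.0534), LPS mouse 6 (-1.53, adjusted p = 0.0803) or LPS mouse 7 (-1.04, adjusted p = 0.0929) in edgeR. Without LPS mice 6 and 7 it was -0.78 (adjusted p = 0.33, edgeR). Dual treatment differed from LPS by 0.71 (SE 0.629, adjusted p = 0.356, edgeR), or by -0.00 without LPS mice 6 and 7, and from control by -0.78 (SE 0.607, adjusted p = 0.432, edgeR).

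The chains can also be compared by ratios inside each library. Cd3d relative to Cd3e was 1.33, 1.12 and 1.57 in the controls, 2.38, 4.76 and 2.5 in the LPS mice, and 2.25 and 1.92 in the dual-treated mice. All 5 mice given LPS lay above the 3 controls. Cd3e relative to Cd3g was 0.608, 1.03 and 0.698 in controls, 1.04, 1.0 and 2.40 after LPS, and 0.762 and 0.283 after dual treatment, with overlapping groups. The 3 chain genes summed to 9.35, 5.82 and 5.52 CPM in controls, 6.70, 6.64 and 2.62 after LPS, and 3.31 and 3.69 after dual treatment. Both dual-treated mice lay below the controls in this sum, and LPS mouse 7 was lower still.

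Cd4 (ENSMUSG00000023274, chr6:124841655-124874758, minus strand) codes for the coreceptor of helper T cells, which some myeloid cells also carry. Its level was 3.13, 2.86 and 2.71 CPM in control mice 1, 2 and 4, 1.90, 0.635 and 0.502 in LPS mice 1, 6 and 7, and 1.04 and 2.06 in dual-treated mice 2 and 5. Every mouse given LPS was below every control, with LPS mice 6 and 7 lowest. The means were 2.9 ± 0.212 (SD, n = 3), 1.01 ± 0.771 (SD, n = 3) and 1.55 ± 0.721 CPM (SD, n = 2). Cd4 was 2.87-fold lower after LPS, a log2 difference of -1.52 (SE 0.489, adjusted p = 0.0199, edgeR). The call was lost in edgeR without control mouse 1 (-1.47, adjusted p = 0.0518), LPS mouse 6 (-1.27, adjusted p = 0.0674) or LPS mouse 7 (-1.19, adjusted p = 0.0567), and without both of these LPS mice the difference was -0.60 (adjusted p = 0.286). It was larger without LPS mouse 1, at -2.33 (adjusted p = 0.00111, edgeR). Dual treatment differed from control by -0.90 (SE 0.528, adjusted p = 0.291, edgeR). From LPS it differed by 0.62 (SE 0.545, adjusted p = 0.347, edgeR), by 1.44 without LPS mouse 1 (adjusted p = 0.0227, edgeR) and by -0.29 without LPS mice 6 and 7.

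Cd8a (ENSMUSG00000053977, chr6:71350411-71356157, plus strand) codes for the CD8α chain of cytotoxic T cells, which some dendritic cells also express. It lay at 2.15, 1.64 and 1.29 CPM in the controls, 1.90, 2.19 and 1.28 in LPS mice 1, 6 and 7, and 1.41 and 1.36 in the dual-treated mice. The groups overlapped throughout. Their means were 1.69 ± 0.435 (SD, n = 3), 1.79 ± 0.465 (SD, n = 3) and 1.38 ± 0.0324 CPM (SD, n = 2). The log2 difference of LPS from control was 0.08 (SE 0.327, adjusted p = 0.839, edgeR), and its sign turned to -0.21 with library size alone and to -0.08 without control mouse 4 or without LPS mouse 6. Dual treatment differed by -0.29 from control (adjusted p = 0.646, edgeR) and by -0.37 from LPS (adjusted p = 0.409, edgeR).

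Cd8b1 (ENSMUSG00000053044, chr6:71299772-71315087, plus strand) codes for CD8β, which joins CD8α on conventional cytotoxic T cells. Its CPM was 0.979, 1.41 and 0.874 in the controls, 0.890, 0.578 and 0.223 in LPS mice 1, 6 and 7, and 0.499 and 0.571 in the dual-treated mice, or 4 to 30 counts a library. LPS mouse 1 fell in the control range, and both dual-treated mice were below the controls. The means were 1.09 ± 0.283 (SD, n = 3), 0.564 ± 0.334 (SD, n = 3) and 0.535 ± 0.0506 CPM (SD, n = 2). LPS differed from control by -0.95 on the log2 scale (SE 0.502, adjusted p = 0.121, edgeR), and the gene was called lower without LPS mouse 1 (-1.43, adjusted p = 0.0457, edgeR) and with library size alone (-1.25, adjusted p = 0.044, edgeR). Without LPS mice 6 and 7 the difference was -0.28 (adjusted p = 0.695, edgeR). Dual treatment differed from control by -1.01 (SE 0.56, adjusted p = 0.259, edgeR). From LPS it differed by -0.07 (adjusted p = 0.927, edgeR), a sign that turned to 0.41 without LPS mouse 1 and 0.28 with library size alone. It was -0.73 without LPS mice 6 and 7 (adjusted p = 0.341, edgeR).

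The balance between the coreceptor genes also differed among mice. Cd4 relative to Cd8a was 1.45, 1.74 and 2.11 in the controls, 1.0, 0.289 and 0.391 in LPS mice 1, 6 and 7, and 0.742 and 1.52 in dual-treated mice 2 and 5. The 3 LPS mice lay below the controls, and dual-treated mouse 5 lay within the control range. Cd8a relative to Cd8b1 was 2.2, 1.17 and 1.47 in the controls, 2.13, 3.80 and 5.75 after LPS, and 2.82 and 2.38 after dual treatment. The summed coreceptor level was 6.26, 5.91 and 4.87 CPM in the controls, 4.69, 3.41 and 2.01 after LPS, and 2.95 and 4.0 after dual treatment, so all mice given LPS were below all controls.

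The balance of B to T receptor transcripts set dual-treated mouse 2 apart. The sum of Cd79a and Cd79b over the sum of the CD3 chain genes was 2.65, 4.44 and 4.50 in the controls, 2.65, 2.57 and 4.32 in the LPS mice, 15.5 in dual-treated mouse 2 and 4.49 in dual-treated mouse 5. The other 7 mice overlapped. All 9 genes together reached 44.6, 42.2 and 39.3 CPM in controls, 29.9, 27.5 and 16.9 after LPS, and 66.9 and 28.1 after dual treatment.

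Levels of different genes can be ordered only per length, here in CPM per kilobase of exon. In controls Cd79b stood at 9.33 ± 0.245 and Cd79a at 7.76 ± 0.532 (SD, n = 3), a gap larger than their spread, both far above the other 7 genes. Cd3d followed at 0.954 ± 0.222, Cd3g at 0.781 ± 0.347, Ms4a1 at 0.692 ± 0.0445 and Cd4 at 0.646 ± 0.0472, neighbours that do not differ beyond their spread. Cd8b1 at 0.492 ± 0.128, Cd8a at 0.466 ± 0.12 and Cd3e at 0.458 ± 0.119 came last, also within their spread. By the length of the longest transcript, Ms4a1 moved to 1.39, above Cd3d, and Cd4 to 0.878.

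After LPS, Ms4a1 came last at 0.111 ± 0.0441 CPM per kilobase (SD, n = 3), within the spread of Cd4 above it. Cd79b stayed first at 8.18 ± 1.87, ahead of Cd79a at 2.42 ± 0.621, a gap larger than their spread, and then Cd3d at 1.29 ± 0.591 and Cd8a at 0.493 ± 0.128. The remaining Cd3g at 0.279 ± 0.185, Cd3e at 0.261 ± 0.108, Cd8b1 at 0.255 ± 0.151 and Cd4 at 0.225 ± 0.171 did not differ beyond their spread. After dual treatment Cd79a at 11.5 ± 10.3 and Cd79b at 11.4 ± 6.22 (SD, n = 2) could not be ordered. Below them were Ms4a1 at 1.08 ± 0.637, Cd3d at 0.528 ± 0.146, Cd3g at 0.454 ± 0.23, Cd8a at 0.381 ± 0.0089, Cd4 at 0.346 ± 0.16, Cd8b1 at 0.242 ± 0.0229 and Cd3e at 0.159 ± 0.0269. Of these, Cd8b1 and Cd3e were the only neighbours separated by more than their spread, and by the length of the longest transcript, at 0.256 and 0.254, they were not.

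**Figure D2:**
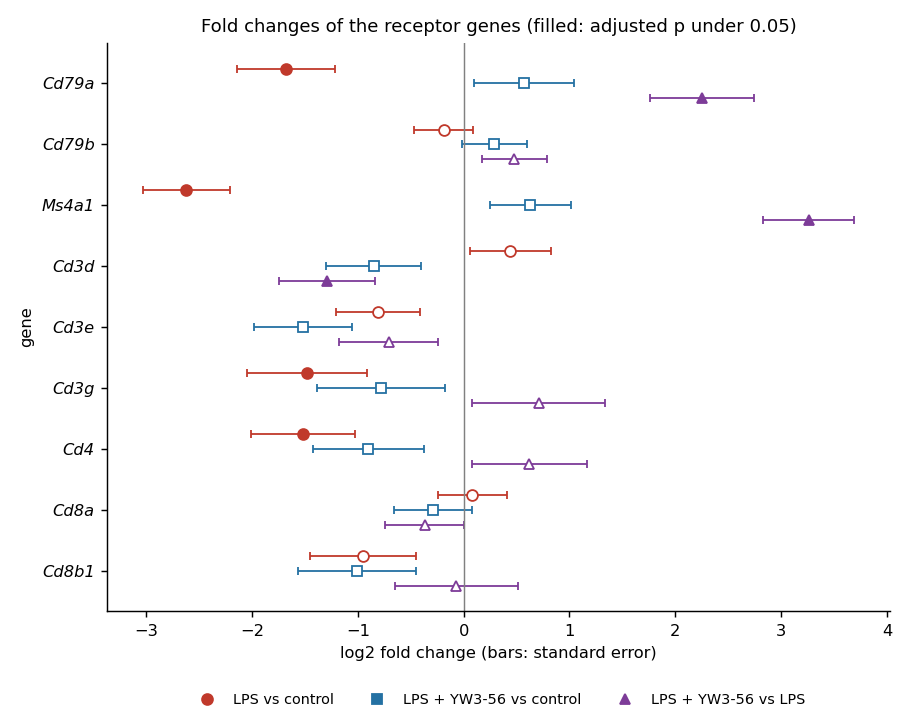
Log2 difference of each receptor gene in the 3 comparisons, with bars of 1 standard error from the edgeR fit over all 8 mice and filled symbols where the adjusted p was under 0.05. Ms4a1 stands at -2.62 for LPS against control and at 3.26 for dual treatment against LPS.

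Other genes of the B cell receptor pathway were called in both directions after LPS. Their counts without single mice, and those of the lists that follow, were chosen after seeing the data. Of 20 such genes, which include the immunoglobulin constant genes, coreceptors and kinases, 5 were called lower and 6 higher, beside 33.9% lower and 32.6% higher of all tested genes, with a median log2 difference of 0.18. Without dual-treated mouse 2 or dual-treated mouse 5, libraries that enter neither group, these were 8 and 7, and with library size alone 7 and 5, with a median of -0.11. The kinase Blk lay at 5.09, 4.08 and 5.20 CPM in controls, 1.01, 1.16 and 1.23 after LPS, and 4.13 and 1.76 in dual-treated mice 2 and 5. Blk was lower after LPS by a log2 difference of -2.08 (SE 0.341, adjusted p = 0.000488, edgeR). The scaffold gene Bank1 lay at 1.86, 3.43 and 3.03 CPM in controls, 0.178, 0.462 and 0.447 after LPS, and 5.45 and 2.41 after dual treatment. For Bank1 the log2 difference was -2.91 after LPS (SE 0.486, adjusted p = 0.00054, edgeR) and 3.41 for dual treatment against LPS (SE 0.509, adjusted p = 0.000386, edgeR). Without LPS mice 6 and 7 these were -3.91 and 4.41, and the latter was 2.68 without dual-treated mouse 2. Cr2, the complement receptor of the B cell coreceptor, was at 1.57, 1.31 and 0.782 CPM in controls, at 0 in LPS mouse 1, at 0.116 and 0.112 in LPS mice 6 and 7, and at 0.499 and 0.746 after dual treatment. For all 3 genes the LPS mice lay below every other mouse, as they did for Cd79a and Ms4a1.

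Other genes of the same pathway did not share that pattern. The adaptor gene Blnk, also expressed in myeloid cells, rose by 2.29 after LPS (SE 0.286, adjusted p = 8.25e-05, edgeR), from 3.13, 3.80 and 2.53 CPM to 16.7, 13.9 and 15.9. The kinase gene Btk, likewise active in myeloid cells, lay at 7.49, 5.68 and 6.48 CPM in controls, 7.36, 8.32 and 6.98 after LPS, and 18.5 and 17.4 after dual treatment. With dual treatment Btk rose by 1.45 against control (SE 0.173, adjusted p = 0.000747, edgeR). After dual treatment, 7.02% of all tested genes were lower and 9.13% higher against control, and 27.4% lower and 31.7% higher against LPS. In the pathway as a whole, dual treatment gave 1 gene lower and 7 higher against control, with a median of 0.98. Without control mouse 2 or without control mouse 4, dual treatment gave 0 and 5. Against LPS it gave 3 lower and 11 higher, with a median of 0.66, 4 and 5 without dual-treated mouse 2, and 3 and 4 without LPS mice 6 and 7.

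Transcripts of IgM and kappa chains were very high in dual-treated mouse 2. Ighm, the heavy chain of IgM, lay at 59.4, 58.7 and 57.6 CPM in controls, 79.8, 107 and 78.3 after LPS, 1294 in dual-treated mouse 2 and 69.2 in dual-treated mouse 5. Igkc, the kappa light chain, lay at 94.8, 94.4 and 86.1 in controls, 55.0, 81.7 and 56.2 after LPS, 780 in dual-treated mouse 2 and 53.0 in dual-treated mouse 5. Dual-treated mouse 5 was near the controls for Ighm and below them for Igkc. Ighd, the heavy chain of IgD, was not high in dual-treated mouse 2, at 7.10, 7.93 and 10.2 in controls, 4.63, 6.76 and 2.96 after LPS, and 3.00 and 5.01 after dual treatment. The edgeR call of Ighm against control, a log2 difference of 3.54 (SE 0.817, adjusted p = 0.0181), became 0.21 without dual-treated mouse 2 (adjusted p = 0.593) and 4.44 without dual-treated mouse 5 (adjusted p = 6.27e-06). The edgeR call was also lost without control mouse 1 (3.55, adjusted p = 0.0656), control mouse 2 (3.54, adjusted p = 0.0675) or control mouse 4 (3.50, adjusted p = 0.0712), with a log2 difference of similar size. Igkc differed from control by 2.18 (SE 0.74, adjusted p = 0.0761, edgeR), by -0.82 without dual-treated mouse 2 (adjusted p = 0.0778) and by 3.06 without dual-treated mouse 5 (adjusted p = 4.83e-05). The high Ighm and Igkc levels are therefore values of 1 mouse, the same mouse in which Cd79a, Cd79b and Ms4a1 were highest.

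Of 11 genes of B cell identity, 2 were lower and 2 higher after LPS, beside 33.9% lower and 32.6% higher of all tested genes. The median of the 11 was -0.34. Without dual-treated mouse 2 or dual-treated mouse 5, and with library size alone, 4 were lower and 2 higher. H2-Ob, part of a chaperone of MHC class II peptide loading in B cells, was at 6.41, 6.19 and 6.81 CPM in controls, 2.2, 2.83 and 1.95 after LPS, and 3.72 and 3.95 after dual treatment, with no overlap between groups. H2-Ob was lower by -1.47 after LPS (SE 0.211, adjusted p = 0.000202, edgeR), a call kept with each mouse left out. The other gene called lower was the transcription factor gene Spib, named after its values were seen, with -0.66 (SE 0.255, adjusted p = 0.0427, edgeR). For Spib the call was lost without any 1 of the 3 controls, without LPS mouse 6 or LPS mouse 7, and without both of these (-0.25, adjusted p = 0.486, edgeR). Pax5, the transcription factor that fixes the B lineage, lay at 4.01, 3.43 and 2.90 CPM in controls, 4.15, 4.16 and 3.41 after LPS, and 6.31 and 3.73 after dual treatment. LPS differed from control by 0.18 for Pax5 (SE 0.257, adjusted p = 0.553, edgeR), or by -0.11 with library size alone, and the ranges overlapped. Fcer2a, the low-affinity IgE receptor CD23, carried by mature B cells and some myeloid cells, lay at 2.10, 3.24 and 2.02 in controls, 9.20, 12.9 and 6.75 after LPS, and 2.22 and 3.64 after dual treatment. Fcer2a rose by 1.97 after LPS (SE 0.319, adjusted p = 0.000456, edgeR) and was lower by -1.71 in dual-treated than in LPS mice (SE 0.363, adjusted p = 0.00295, edgeR). Ly6d, which squamous epithelium also expresses, differed by 2.98 after LPS (SE 0.754, adjusted p = 0.00626, edgeR) by 2.31 without LPS mouse 7 and by 0.69 without LPS mice 6 and 7 (adjusted p = 0.448). Without those 2 mice together the LPS count was 1 lower and 1 higher, and it was 1 and 2 without control mouse 1, control mouse 4, LPS mouse 6 or LPS mouse 7.

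Dual treatment gave 0 lower and 2 higher of the 11 identity genes against control, with a median of 0.54. At an unadjusted p under 0.05 edgeR found 1 lower and 3 higher, and 1 was higher without control mouse 1, control mouse 2, control mouse 4 or dual-treated mouse 2. Against LPS there were 1 lower and 4 higher, with a median of 0.72, and 1 and 2 without control mouse 4, LPS mouse 7 or LPS mice 6 and 7, and 2 and 1 without dual-treated mouse 2. The 2 genes called higher against control were Pou2af1 and Cd37, the latter named after its values were seen. Cd37 was high in both dual-treated mice, at 47.1 and 56.7 CPM, beside 24.2, 15.6 and 21.5 in controls. After LPS it lay at 15.7, 19.3 and 13.3 CPM. Dual treatment differed from control by 1.35 for Cd37 (SE 0.203, adjusted p = 0.00253, edgeR). Pou2af1, a coactivator of immunoglobulin transcription, was again highest in dual-treated mouse 2, at 49.2 CPM, beside 3.07 in dual-treated mouse 5. Pou2af1 lay at 3.96, 4.60 and 3.49 CPM in controls, and at 1.84, 2.54 and 2.01 after LPS. Its difference of 3.61 from LPS (SE 0.824, adjusted p = 0.00436, edgeR) became 0.50 without dual-treated mouse 2 (adjusted p = 0.244) and 4.50 without dual-treated mouse 5, and was not called without LPS mice 6 and 7 (3.82, adjusted p = 0.0684).

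**Figure D3:**
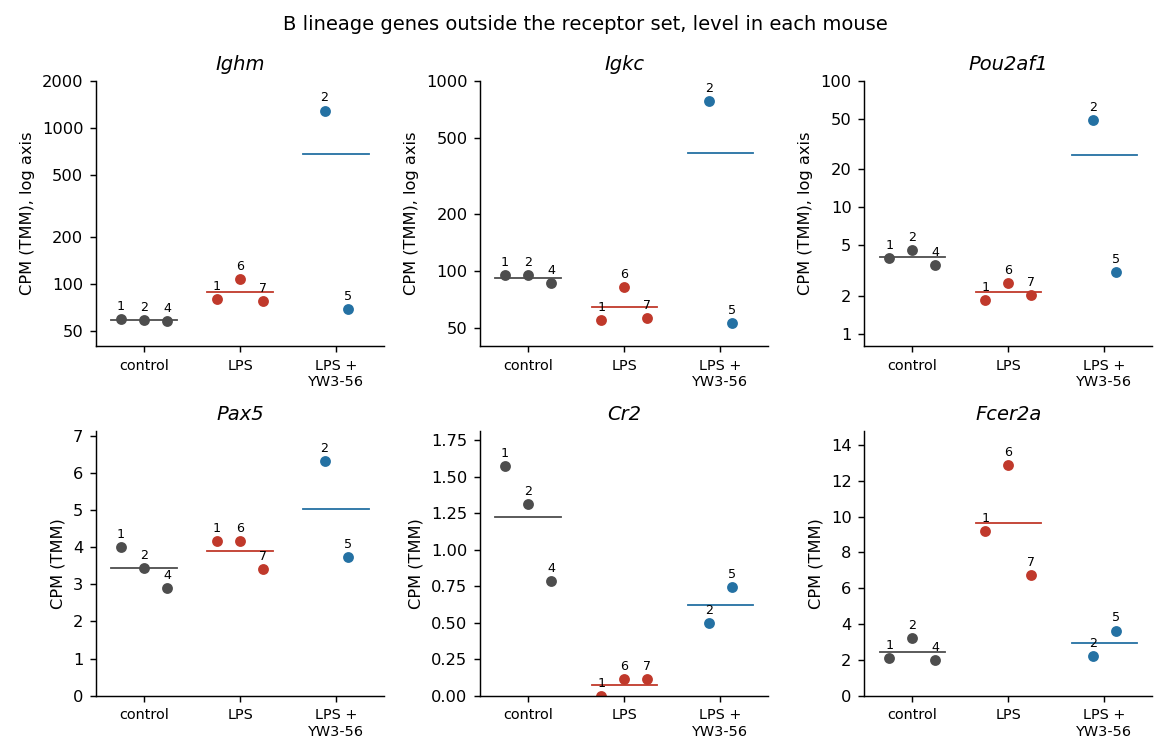
Level in every mouse of 6 B lineage genes outside the receptor set, in CPM after TMM scaling, on a log axis for Ighm, Igkc and Pou2af1, with points numbered by mouse and a bar at the group mean. Dual-treated mouse 2 is far above the others for Ighm at 1294 CPM, while Cr2 is near 0 and Fcer2a highest in the LPS mice.

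Plasma cells carry little CD20 and much immunoglobulin. Of 11 tested plasma cell genes among 13, LPS gave 2 lower and 3 higher, with a median of 0.44, and dual treatment gave 4 lower and 2 higher against LPS, with a median of 0.50. This balance turned on single mice, with 6 lower and 0 higher without dual-treated mouse 2, and 3 lower and 5 higher without dual-treated mouse 5. Against control, dual treatment gave 1 lower and 0 higher, with 1 and 4 at an unadjusted p under 0.05 in edgeR and 1 and 1 by DESeq2. That count was 2 and 0 without dual-treated mouse 2, 1 and 4 without dual-treated mouse 5, and 1 and 1 without LPS mouse 6. The list summed to 530, 515 and 531 CPM in controls, 809, 876 and 873 after LPS, and 607 and 452 after dual treatment. In the sum over mice its most abundant gene was Xbp1, a secretory regulator of many cell types, at 188, 160 and 173, 349, 453 and 453, and 260 and 197 CPM. Sdc1, a surface proteoglycan that epithelium also carries, named after its values were seen, exceeded it in the controls at 202, 222 and 238 CPM. Sdc1 was also above Xbp1 in LPS mouse 1, narrowly, at 350 CPM, and in dual-treated mouse 5 at 218 CPM. Mzb1, a chaperone of antibody-secreting B cells, was at 2.74, 1.60 and 1.2 in controls, 0.297, 0.866 and 0.167 after LPS, and 9.62 and 1.54 in dual-treated mice 2 and 5.

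IgA transcripts were low in both dual-treated mice, of which only dual-treated mouse 2 had high IgM transcripts. Igha lay at 91.8, 83.2 and 81.2 CPM in controls, 47.8, 61.9 and 47.1 after LPS, and 23.2 and 18.2 in dual-treated mice 2 and 5. The 3 groups did not overlap. Igha was lower by -0.71 after LPS (SE 0.134, adjusted p = 0.00117, edgeR) and by -2.04 after dual treatment against control (SE 0.162, adjusted p = 8.69e-05, edgeR). These calls were the same in sign and side of the threshold with each mouse left out.

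T cell receptor pathway genes were also called in both directions after LPS. Of 22 such genes, 2 were called lower and 6 higher, beside 33.9% lower and 32.6% higher of all tested genes, with a median of 0.24. With library size alone these were 4 and 4. Zap70, the kinase that binds phosphorylated CD3 chains and is shared with NK cells, lay at 5.28, 5.77 and 5.47 in controls, 13.1, 8.78 and 9.15 after LPS, and 4.90 and 6.45 after dual treatment. Zap70 rose by 0.91 after LPS (SE 0.208, adjusted p = 0.00358, edgeR), and all LPS mice lay above all others. Cd2, an adhesion receptor of T and NK cells, fell by 1.81 on the log2 scale (SE 0.306, adjusted p = 0.00058, edgeR), from 8.95, 7.93 and 10.8 CPM to 3.80, 2.43 and 1.67.

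Trac, the constant gene of the T cell receptor α chain itself, lay at 1.96, 1.41 and 2.02 CPM in controls, 4.15, 3.18 and 2.57 after LPS, and 0.726 and 1.19 in dual-treated mice 2 and 5. Its 3 groups did not overlap. Trac rose by 0.87 after LPS (SE 0.312, adjusted p = 0.0316, edgeR), but not with library size alone (0.58, adjusted p = 0.119). The edgeR call was also lost without control mouse 1 (adjusted p = 0.0591), control mouse 2 (adjusted p = 0.113), control mouse 4 (adjusted p = 0.0537), LPS mouse 1 (adjusted p = 0.106) or LPS mouse 6 (adjusted p = 0.0547). In dual-treated mice Trac was lower than in LPS mice by -1.78 (SE 0.376, adjusted p = 0.0029, edgeR), a call kept with each mouse left out. Trbc2, a constant gene of the β chain, lay at 4.60, 3.61 and 4.55 CPM in controls, 6.35, 3.52 and 2.07 after LPS, and 1.32 and 2.77 after dual treatment. LPS mice lay on both sides of the controls for Trbc2, with a log2 difference of -0.10 (SE 0.405, adjusted p = 0.841, edgeR) that turned to 0.22 without LPS mouse 7 and to 0.58 without LPS mice 6 and 7. Lck, the kinase carried by CD4 and CD8, lay at 8.81, 7.46 and 5.66 in controls, 11.6, 7.10 and 6.53 after LPS, and 3.86 and 6.98 after dual treatment, with overlapping ranges.

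Dual treatment gave 9 of the 22 T cell receptor pathway genes lower and 5 higher than LPS, with a median of -0.63, or 6 and 6 with library size alone, 10 and 3 without dual-treated mouse 5, and 11 and 3 without LPS mice 6 and 7. Against control it gave 3 lower and 3 higher, with a median of -0.44, 0 and 3 without control mouse 4 or without dual-treated mouse 2, and 1 and 3 without control mouse 1 or without dual-treated mouse 5. Of all tested genes, 27.4% were lower and 31.7% higher against LPS, and 7.02% lower and 9.13% higher against control. Among the lower of the 22 genes was Lat, the adaptor that ZAP70 phosphorylates. Lat lay at 8.22, 6.10 and 8.60 CPM in controls, 10.6, 8.55 and 6.42 after LPS, and 3.63 and 4.21 after dual treatment. Lat was lower than in LPS mice by -1.12 (SE 0.266, adjusted p = 0.00546, edgeR), a call kept with each mouse left out. Among the higher was Lcp2, an adaptor also used by myeloid cells and platelets, at 9.79, 9.48 and 12.7 in controls, 37.0, 45.2 and 32.8 after LPS, and 60.8 and 59.4 after dual treatment.

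Of 11 genes of T cell identity, 5 were called lower and 4 higher after LPS, beside 33.9% lower and 32.6% higher of all tested genes, with a median of -0.38. Tcf7, a transcription factor of naive and memory T cells, lay at 20.6, 26.8 and 20.7 CPM in controls, 15.4, 14.4 and 12.8 after LPS, and 11.4 and 10.8 after dual treatment, without overlap between groups. Tcf7 was lower by -0.68 after LPS (SE 0.145, adjusted p = 0.00247, edgeR) and by -1.03 after dual treatment against control (SE 0.166, adjusted p = 0.00347, edgeR). Gata3, a factor also found in innate lymphoid and epithelial cells, fell by 2.24 on the log2 scale after LPS (SE 0.275, adjusted p = 7.56e-05, edgeR). Ccr7, a chemokine receptor that dendritic cells also express, rose by 3.99 after LPS (SE 0.411, adjusted p = 2.47e-05, edgeR). It went from 4.26, 4.46 and 4.55 CPM to 84.7, 58.3 and 68.4, and was at 12.3 and 3.03 after dual treatment. Dual treatment gave 2 lower and 1 higher of the 11 against control, with a median of -0.42, with 4 and 1 at an unadjusted p under 0.05, and 3 and 3 without dual-treated mouse 5. Against LPS it gave 5 lower and 2 higher, with a median of -0.78, or 3 and 3 with library size alone.

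Activation and checkpoint genes of T cells moved almost all one way after LPS. Of 11 tested among 12, LPS gave 0 lower and 9 higher, with a median of 1.87. Of all tested genes, 33.9% were lower and 32.6% higher after LPS. Dual treatment gave 7 of the 11 lower and 0 higher than LPS, with a median of -1.78. In that comparison 27.4% of all tested genes were lower and 31.7% higher. Tnfrsf9, the costimulatory receptor 4-1BB, which activated myeloid cells and endothelium can also express, lay at 1.52, 0.563 and 0.736 CPM in controls, 180, 154 and 90.0 after LPS, and 5.49 and 3.29 after dual treatment. Tnfrsf9 rose by 7.23 after LPS (SE 0.401, adjusted p = 9.77e-07, edgeR) and was lower by -5.01 in dual-treated than in LPS mice (SE 0.403, adjusted p = 1.3e-05, edgeR). Cd69, an early activation marker of lymphocytes, lay at 3.72, 2.91 and 4.23 in controls, 25.5, 17.8 and 11.7 after LPS, and 3.90 and 2.90 after dual treatment. Cd69 rose by 2.34 after LPS (SE 0.295, adjusted p = 8.85e-05, edgeR). Against control, dual treatment gave 0 lower and 1 higher, Tnfrsf9, with 0 and 3 at an unadjusted p under 0.05 and 0 and 2 by DESeq2, and a median of 0.49. That count was 0 without dual-treated mouse 2 and 2 without dual-treated mouse 5.

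Factors of helper and regulatory T cells numbered 5, among them Gata3, which the T cell identity list also holds. LPS gave 1 lower and 2 higher, with a median of 0.56, or 1 and 1 with library size alone. Dual treatment gave 1 lower and 0 higher against control, with a median of -0.12, and 2 lower and 0 higher against LPS, with a median of -0.68. Foxp3, the factor of regulatory T cells, was scarce at 0.587, 0.375 and 0.644 CPM in controls, 0.534, 0.462 and 1.06 after LPS, and 0.499 and 0.483 after dual treatment, with overlapping groups. The most abundant was Bcl6, a repressor of follicular lymphocytes and many other cells, at 47.5, 39.7 and 35.2, 77.2, 54.8 and 63.6, and 35.9 and 42.2 CPM.

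Cells that share some of these transcripts were followed by lists of their own, and the part of each in the receptor gene values was not tested. Gamma-delta T cells carry CD3 but rarely CD4. Of 4 tested genes among 5, LPS gave 2 lower and 0 higher, with a median of -0.74, and 1 lower without control mouse 1, LPS mouse 6, LPS mouse 7 or both of these LPS mice. Dual treatment gave 0 of 4 against control in edgeR, 0 at an unadjusted p under 0.05 and 0 by DESeq2, with a median of -0.85, and 0 lower and 1 higher against LPS, with a median of 0.19. The list summed to 10.8, 5.73 and 6.12 CPM in controls, 3.97, 2.54 and 2.62 after LPS, and 4.17 and 4.61 after dual treatment. Its most abundant gene, Cd163l1 (Scart1 in the annotation), lay at 6.56, 2.91 and 3.13, 2.79, 1.79 and 1.23, and 2.54 and 2.46 CPM. Trdc, the constant gene of the δ chain, was detected in every mouse at 0.272 to 1.13 CPM. Tcrg-C1 (Trgc1 in the annotation) lay at 2.35, 1.41 and 1.33 CPM in controls and 0, 0.0578 and 0.0558 after LPS, with at most 1 count there. In dual-treated mice 2 and 5 Tcrg-C1 was at 0.998 and 0.746 CPM. Its log2 difference was -5.25 after LPS (SE 0.653, adjusted p = 8.07e-05, edgeR). Dual treatment differed from LPS by 4.30 for Tcrg-C1 (SE 0.715, adjusted p = 0.000731, edgeR).

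NK cells share Cd247, Zap70 and Cd2 with T cells. Of 8 NK genes, LPS gave 1 lower and 3 higher, with a median of 1.18, or 0 and 5 without LPS mouse 7, and dual treatment gave 0 lower and 2 higher against control, with a median of 1.23, with 0 and 5 at an unadjusted p under 0.05. Against LPS the counts were 1 lower and 2 higher, with a median of 0.73, 1 and 5 without LPS mouse 1 or with library size alone, and 1 and 0 without LPS mice 6 and 7. The summed level was 17.0, 12.9 and 15.3 CPM in controls, 55.8, 46.0 and 24.7 after LPS, and 42.5 and 85.5 after dual treatment. Gzma, a granzyme shared with cytotoxic T cells, was the most abundant, at 5.33, 4.69 and 6.53, 30.9, 25.5 and 11.2, and 26.2 and 52.1 CPM. All mice given LPS lay above all controls for Gzma. Ncr1, the receptor that defines NK cells, lay at 0.294, 0.329 and 1.01 in controls, 0.178, 0.116 and 0.0558 after LPS, and 0.862 and 3.34 after dual treatment.

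Dendritic cells can carry Cd8a and Cd4 transcripts. Of 11 tested genes among 12, LPS gave 6 lower and 1 higher, with a median of -1.76. Dual treatment gave 5 lower and 1 higher against control, with a median of -1.13, 2 and 0 without dual-treated mouse 2, and 5 and 0 with library size alone. It gave 3 lower and 3 higher against LPS, with a median of 0.33, or 3 and 5 without dual-treated mouse 5. The sum was 174, 166 and 165 CPM in controls, 73.4, 77.4 and 65.9 after LPS, and 126 and 113 after dual treatment. The most abundant in the sum over mice was Cox6a2, named for its abundance, which muscle also expresses, at 30.7 to 43.8 CPM in all mice, although Clec9a exceeded it in the controls and Zbtb46, named after its values were seen, in the controls and dual-treated mice. Clec9a, which marks the conventional dendritic cells that take up dead cells, lay at 64.6, 56.6 and 61.4 CPM in controls, 0.534, 0.520 and 0.781 after LPS, and 25.5 and 30.0 after dual treatment. Its groups did not overlap, with a log2 difference of -6.62 after LPS (SE 0.174, adjusted p = 8.37e-08, edgeR). The markers Cd209a and Siglech were at 0 in dual-treated mouse 2.

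Thymocytes carry CD3 and coreceptor transcripts together. Thymocyte genes were almost absent, and the part of such cells in the receptor gene values was not tested. The 5 thymocyte genes summed to 0.0489, 0.0469 and 0.138 CPM in controls, 0.415, 0.231 and 0.167 after LPS, and 0.0454 and 0.0439 after dual treatment. None passed the filter for edgeR, so 0 could be called there, and DESeq2 called 0 of 5 in each comparison. Rag2 was at 0 in every library but LPS mouse 1, Ptcra in every library but LPS mouse 7 and dual-treated mouse 5, and Dntt in every library but control mouse 4. The most abundant, Rag1, was at 0 in control mouse 1, LPS mouse 6 and dual-treated mouse 5, and had at most 5 counts, in LPS mouse 1.

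Lymph node stroma was followed by its own genes, and the part of lymph node tissue in the receptor gene values was not tested. Of 4 tested stromal genes among 6, LPS gave 1 lower and 3 higher, with a median of 4.10, and dual treatment gave 1 lower and 1 higher against control, with a median of 1.98. Against LPS there were 2 lower and 0 higher, with a median of -1.31, and 1 and 0 without control mouse 2, control mouse 4, LPS mouse 1, LPS mouse 6, LPS mouse 7 or both LPS mice 6 and 7, or 1 and 1 with library size alone or without control mouse 1. The sum was 47.5, 44.4 and 45.6 CPM in controls, 69.9, 86.7 and 74.4 after LPS, and 163 and 71.4 in dual-treated mice 2 and 5. Cxcl13, the chemokine that draws B cells into follicles and that macrophages can also make, was the most abundant in the sum over mice, at 9.15, 2.35 and 2.80 in controls, 34.6, 59.7 and 41.7 after LPS, and 156 and 53.7 in dual-treated mice 2 and 5. In the controls Ccl21a, a chemokine of lymphatic vessels and lymph node stroma, was above it at 37.5, 41.7 and 41.2 CPM. Cxcl13 was highest in dual-treated mouse 2, as the B cell receptor genes were. Ccl21a was lowest there, at 5.45 CPM, and lay below the controls in every mouse given LPS. Ccl21a lay at 13.1, 9.93 and 13.2 CPM after LPS and 16.9 in dual-treated mouse 5. Ccl19 was at 0.196, 0.282 and 1.29 CPM in controls, 21.1, 16.1 and 18.6 after LPS, and 1.59 and 0.922 after dual treatment. The vessel marker Glycam1 was at 0 in all controls, LPS mouse 7 and dual-treated mouse 5 and had at most 2 counts elsewhere. Madcam1 was at 0 in control mice 2 and 4 and dual-treated mouse 5.

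Neutrophil genes rose after LPS, and macrophage genes were mostly higher after dual treatment than in both other groups. Of all tested genes, 33.9% were lower and 32.6% higher after LPS. After dual treatment, 7.02% were lower and 9.13% higher against control, and 27.4% lower and 31.7% higher against LPS. All 8 neutrophil genes were called higher and 0 lower after LPS, with a median of 2.94, and dual treatment gave 7 higher and 0 lower against control, with a median of 3.35. Against LPS there were 1 lower and 4 higher, with a median of 0.59, 1 and 1 without dual-treated mouse 5, and 0 and 1 without LPS mice 6 and 7. The sum was 231, 128 and 134 CPM in controls, 2190, 3059 and 1915 after LPS, and 1800 and 2483 after dual treatment, led by S100a9 at 98.3, 55.5 and 57.3, 1362, 1856 and 1183, and 832 and 1171 CPM. Of 10 macrophage genes, LPS gave 3 lower and 2 higher, with a median of -0.01, or 4 and 1 with library size alone. Dual treatment gave 1 lower and 7 higher against control, with a median of 2.06, and 0 lower and 9 higher against LPS, with a median of 1.43. They summed to 875, 616 and 821 CPM in controls, 902, 991 and 521 after LPS, and 1501 and 1998 after dual treatment, led by Chil3, named for its abundance, at 594, 406 and 558, 654, 742 and 340, and 657 and 1244 CPM. No marker of either list was at 0 in any library.

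Counts of the tissue lists follow. After LPS, 33.9% of all tested genes were lower and 32.6% higher. After dual treatment the shares were 27.4% lower and 31.7% higher against LPS, and 7.02% lower and 9.13% higher against control. Of the 11 lung genes, LPS gave 4 lower and 2 higher, with a median of -0.26, 2 and 2 without LPS mice 6 and 7, and 8 and 1 with library size alone, with a median of -0.56. Dual treatment gave 3 lower and 2 higher against LPS, with a median of 0.07, or 2 and 5 with library size alone. Against control, dual treatment gave 1 lower and 1 higher, with a median of -0.30, 0 and 0 without control mouse 1, control mouse 2 or dual-treated mouse 2, and 0 and 1 without control mouse 4 or LPS mouse 6. The 5 red blood cell genes were all called lower after dual treatment, against control with a median of -2.89 and against LPS with a median of -2.41. After LPS 0 of 5 were called in edgeR, 0 at an unadjusted p under 0.05 and 0 by DESeq2, with a median of -0.22, and 1 was lower without LPS mouse 1 or with library size alone. They summed to 1734, 3908 and 2785 CPM in controls, 3284, 1884 and 1468 after LPS, and 426 and 381 after dual treatment. Hbb-bs, the most abundant, lay at 856, 2024 and 1454, 1571, 829 and 698, and 206 and 184 CPM. Blood also carries lymphocytes, and the part of blood in the receptor gene values was not tested.

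Squamous and muscle genes followed LPS mice 6 and 7. Of 11 squamous genes, LPS gave 0 lower and 6 higher, with a median of 3.12, and 2 higher without LPS mouse 6 or without LPS mouse 7. Without both of these mice the direction turned, with 4 lower and 0 higher of 8 tested. Dual treatment gave 7 lower and 0 higher against LPS, with a median of -3.32, 4 lower without LPS mouse 6, 2 without LPS mouse 7, 3 without dual-treated mouse 2 or dual-treated mouse 5, and 0 lower and 3 higher without LPS mice 6 and 7. Against control edgeR called 0 of 11, with 1 lower at an unadjusted p under 0.05 and 1 lower by DESeq2, and a median of 0.47. That count was 2 lower and 1 higher without LPS mouse 1, 1 lower without LPS mouse 7, and 3 lower and 1 higher without LPS mice 6 and 7. Krt5, the keratin of basal cells, was at 0 in dual-treated mouse 2.

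Of 9 tested muscle genes among 10, LPS gave 9 higher and 0 lower, with a median of 4.59, and 0 without LPS mice 6 and 7. Dual treatment gave 9 lower and 0 higher against LPS, with a median of -5.90, 5 lower without dual-treated mouse 5, and 2 lower and 1 higher without LPS mice 6 and 7. Against control edgeR called 0 of 9, 0 at an unadjusted p under 0.05, and DESeq2 called 0 of 10, with a median of -0.52. That count was 1 lower without LPS mouse 1 and without LPS mice 6 and 7.

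The genes whose pattern over the 8 mice was most like that of the receptor genes were sought among 15613 genes with a mean of at least 1 CPM. Likeness was the root mean square difference in centred log2 CPM from the mean profile. For the B cell profile of Cd79a, Cd79b and Ms4a1 the closest were Gm27010 at 0.263, Zfp182 at 0.274, Gimap4 at 0.298, Spopl at 0.305 and Ttpal at 0.309. Cd79a itself stood at 0.245, Ms4a1 at 0.627 and Cd79b at 0.655 from the profile, so Cd79b and Ms4a1 lay farther from their own mean than the 5 genes named. For the T cell profile of the CD3 chain genes the closest were Zfp560 at 0.256, Tspan15 at 0.266, Scimp at 0.285, Hs2st1 at 0.296 and Cadm1 at 0.296. Cd3e stood at 0.259, Cd3d at 0.505 and Cd3g at 0.563.

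By position, the CD3 chain genes form a cluster of 40056 bases on chromosome 9 of GRCm39. Cd3g and Cd3d lie head to head with 1347 bases between them, and Cd3e lies 10863 bases beyond Cd3d. Cd8b1 and Cd8a are neighbours on chromosome 6, with 35323 bases between them. Annotated exons of Cd79a share 128 bases, 8.4% of its exon length, with the lncRNA Gm72234 on the opposite strand, which the count tables do not list. Cd3e shares 135 bases, 3.31%, with the opposite-strand lncRNA Gm48719, which had 5 counts in the 8 libraries together. Whether counting used strand is not stated, so reads in those stretches cannot be assigned to one strand. No exon overlap was found for the other 7 genes.

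Promoter windows of 250 bases before the RefSeq start were found in the RefSeq table (GRCm38.p6) for 5 of the 9 genes, Cd79a, Cd3d, Cd3e, Cd3g and Cd8a. Each was searched on both strands for the E-box CAGGTG, the ETS core GGAAGT and the octamer ATTTGCAT. Of 32851 RefSeq promoters of this length, 17.2% hold the E-box, 19.7% the ETS core and 1.6% the octamer. Cd79a had an E-box 154 bases and an ETS core 54 bases before the RefSeq start, both inside the gene as annotated on GRCm39, which begins within this window, and Cd3e had an ETS core at 18 bases. Cd8a had none of the 3. The octamer was in none of the 5 windows. A match describes letters only. The windows of Cd3g and Cd3d are shown because these divergent neighbours start 1348 bases apart and yet had different values after LPS, a difference between them that was not tested. Capitals mark the E-box or ETS core on either strand, at 112 (E-box) and 199 bases (ETS) before the start in Cd3d and at 148 and 35 bases (E-box) in Cd3g. Cd3d is read from chr9:44981536-44981785 on the plus strand and Cd3g from chr9:44980432-44980681 on the minus strand.
Cd3d: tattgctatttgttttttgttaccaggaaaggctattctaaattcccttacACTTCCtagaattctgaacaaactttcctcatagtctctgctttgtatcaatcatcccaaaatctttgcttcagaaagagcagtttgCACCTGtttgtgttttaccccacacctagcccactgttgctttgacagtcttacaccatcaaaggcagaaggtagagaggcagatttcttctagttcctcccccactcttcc
Cd3g: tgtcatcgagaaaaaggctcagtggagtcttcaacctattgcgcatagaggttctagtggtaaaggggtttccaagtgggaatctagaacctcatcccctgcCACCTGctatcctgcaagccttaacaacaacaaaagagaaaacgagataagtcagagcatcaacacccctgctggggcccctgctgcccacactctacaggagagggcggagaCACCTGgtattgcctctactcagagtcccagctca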

How the data were processed

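Raw counts per Ensembl gene, 1 table per mouse, were deposited by the authors, who used FastQC 0.11.9, Trim Galore, HISAT2 2.2.1 on GRCm39 and featureCounts 2.0.1. The annotation release and the strand setting are not stated. GENCODE M39 named 54749 of 55416 identifiers. With R 4.3.3, edgeR 4.0.16 fitted all 8 libraries in 1 quasi-likelihood model by group (TMM factors, filterByExpr, 5 residual degrees of freedom). Standard errors are the log2 difference over the root of F. DESeq2 1.42.0, other scalings, filters, call rules and left-out mice were alternatives. The fit was tested on simulated data. Members and lists were chosen with earlier results of these data known. Genes named are the 9 members, preset defining genes of each list, the 2 highest and 2 lowest log2 differences per list against control, and the 5 closest to each profile. The lists are B cell receptor pathway, T cell receptor pathway, B cell identity, T cell identity, T cell activation and checkpoint, helper and regulatory T cell factors, plasma cell, gamma-delta T cell, NK cell, dendritic cell, thymocyte, lymph node stroma, neutrophil, macrophage, lung tissue, red blood cell, squamous epithelium and skeletal muscle. Promoter windows came from RefSeq. A protein motif search was not made for lack of protein sequences.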

Additional observations from a re-analysis of the deposited data

How the results depend on the processing

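Low counts limit Ms4a1, Cd3g, Cd4 and Cd8b1, which fell under 10 counts in some library: a filter of 10 counts in every library left 5 of the 9 genes to test. Only 2 dual-treated libraries were analysed, and leaving either out, or LPS mice 6 and 7 together, leaves a lone mouse that is assumed to vary like the other groups. No paired analysis was possible because the groups share fewer than 2 mouse numbers in the labels. The cause of each change below was not tested, beyond the fewer genes or mice that a setting leaves. The lower level of Ms4a1 after LPS and its higher level after dual treatment than after LPS kept direction and call under every setting that tested the gene.

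For LPS against control, the count of receptor genes called was 4, and 1 with 10 counts in every library and 1 without LPS mice 6 and 7. Leaving out each mouse in turn gave 2 to 6. For dual treatment against control the count was 0, and 1 by DESeq2, with no filter, with 10 counts in every library, with only the 2 groups, without LPS mice 6 and 7 and by the study's criterion of a fold over 2 at an unadjusted p under 0.05, each time Cd3e. Leaving out each mouse gave 0 to 1.

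Some signs turned. After LPS, Cd79b was at 0.06 without LPS mice 6 and 7, and Cd8a at -0.21 by library size and between -0.08 and 0.29 with each mouse left out. For dual treatment against control, leaving out each mouse gave -0.89 to 1.24 for Cd79a, -0.44 to 0.73 for Cd79b and -0.18 to 1.11 for Ms4a1. Against LPS it gave -0.24 to 0.93 for Cd79b and -0.46 to 0.41 for Cd8b1. By library size Cd8b1 was at 0.28, and without LPS mice 6 and 7 Cd3g was at -0.00 and Cd4 at -0.29.

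By longest transcript, CPM per kilobase moved by more than its spread for Ms4a1 (1.39 in controls, 0.224 after LPS, 2.16 after dual treatment), for Cd3e (0.733, 0.418 and 0.254), for Cd4 in controls (0.878) and for Cd8a after dual treatment (0.442). Library size changed the balance of list genes called: of 171 tested, 33 lower and 66 higher became 45 and 59 after LPS, and 62 lower and 45 higher became 53 and 58 for dual treatment against LPS. With a prior count of 0.5, 5 of 5 genes closest to the B cell profile and 4 of 5 closest to the T cell profile were shared. Of the receptor gene differences under alternatives, 348 kept direction and call, 15 calls were gained, 17 were lost and 13 signs turned. Of the list counts under alternatives, 494 stayed within 1.5 times in total and in each direction, 77 only in total, and 77 moved by over 1.5 times in total.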
